A study of Mus musculus with 6 samples.

Results

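The occupancy of Ezh2 in mouse T helper type 2 (Th2) cells was read from 3 of the 6 libraries of a chromatin immunoprecipitation sequencing (ChIP-seq) study, which asked where Ezh2 binds in Th1 and in Th2 cells. The 3 Th2 libraries were chromatin precipitated with a polyclonal Ezh2 antibody (Diagenode), chromatin precipitated with control rabbit IgG, and input DNA, with 1 library each. All cells of the study began as naive CD4 T cells (CD44 low, CD62L high) from the spleen of C57BL/6 mice. They were cultured for 5 days, with anti-TCRβ, anti-CD28 and 15 ng/ml IL-2 for the first 2 days and without that stimulation for the last 3. Th2 cultures received 100 ng/ml IL-4 and an antibody that neutralises IFN-γ. Th1 cultures, which gave the other 3 libraries, received 10 ng/ml IL-12 and an antibody that neutralises IL-4. The number of mice or cultures behind a library was not given in the sources used here. No expression was measured in these libraries, so the Th2 label was not checked against marker genes.

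Ezh2 is the methyltransferase of Polycomb repressive complex 2, which places methyl groups on lysine 27 of histone H3 and is known for holding developmental genes silent. In mammals the complex is found mostly at CG-rich promoters of genes that are not transcribed. Th1 cells are driven by the transcription factor T-bet (gene Tbx21) and secrete IFN-γ (Ifng), and Eomes is a T-bet relative that also drives Ifng. Th2 cells are driven by GATA3 (Gata3) and secrete IL-4, IL-5 and IL-13, whose genes lie together with Rad50 in a single locus.

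Because the complex favours CG-rich promoters, the 250 bases upstream of the start are shown for both master regulators, for Eomes and for Il4, at its outermost listed start. They run 5′ to 3′ on the strand of the gene (minus for Tbx21, Gata3 and Il4, plus for Eomes), from RefSeq on GRCm38.p6. Capitals mark each CG, which reads the same on both strands.
Tbx21: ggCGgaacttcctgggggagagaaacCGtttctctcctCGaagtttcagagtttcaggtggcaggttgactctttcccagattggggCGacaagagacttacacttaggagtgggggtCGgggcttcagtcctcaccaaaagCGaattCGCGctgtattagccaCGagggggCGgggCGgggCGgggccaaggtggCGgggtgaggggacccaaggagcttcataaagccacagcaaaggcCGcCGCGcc
Gata3: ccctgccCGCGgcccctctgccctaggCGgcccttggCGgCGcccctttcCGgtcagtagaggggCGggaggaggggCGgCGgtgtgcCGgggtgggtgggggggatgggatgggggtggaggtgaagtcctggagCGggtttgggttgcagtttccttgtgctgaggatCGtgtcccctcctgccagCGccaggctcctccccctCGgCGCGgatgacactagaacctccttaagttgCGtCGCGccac
Eomes: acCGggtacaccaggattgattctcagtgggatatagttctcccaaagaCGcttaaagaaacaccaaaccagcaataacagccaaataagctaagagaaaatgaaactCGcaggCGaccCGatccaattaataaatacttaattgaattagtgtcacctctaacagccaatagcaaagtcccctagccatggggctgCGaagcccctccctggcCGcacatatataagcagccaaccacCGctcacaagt
Il4: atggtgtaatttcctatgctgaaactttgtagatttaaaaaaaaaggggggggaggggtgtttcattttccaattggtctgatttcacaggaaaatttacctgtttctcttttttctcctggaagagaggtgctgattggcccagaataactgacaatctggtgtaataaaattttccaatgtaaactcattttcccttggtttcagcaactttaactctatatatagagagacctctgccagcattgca
The Tbx21 stretch held 16 CG and the Gata3 stretch 19. Among 32851 mouse promoters of the same length, 25.4% held at least 16 and 19.7% at least 19, and the median was 6. Eomes held 8, a number reached by 43.0% of promoters, and Ifng held 6, reached by 50.4%. Il4 held 0, as did 7.87% of promoters. These letters are a description of the sequence and say nothing of what was bound there.

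The Th2 Ezh2 library held 14997378 distinct positions from 30646106 reads, the Th2 input 12902652 from 22865863 reads, and the 8 chromosomes of the Th2 control library that were used 5053626 positions. The reads carried no molecular identifiers, and each group had 1 library. All intervals and tests here therefore cover counting error only and compare libraries, not cell populations. The Ezh2 files of Th1 and Th2 carry different run labels, so the sequencing run and the cell type cannot be told apart. Coordinates are mm9, and a fold is the share of Ezh2 positions in a window over the share of input positions, with a 95% exact (Clopper-Pearson) interval. Library totals set the scale. Scaled instead by the 10 kb windows below the median of Ezh2 over input, each fold is 1.41 times higher. This puts each of the 36 loci but Il4 above 1. Those windows were chosen for a low ratio, so counting error by itself also raises the folds under this background scaling. Gata3 and the loci whose interval passed from below 1 are given with both values.

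In Th2 cells, Ezh2 stood on a small part of the genome, and its widest domains lay over the Hox clusters. Of 1414330 tested 1 kb bins, 17075 (1.21%) were called. A call needed a fold of at least 2 and, in a one-sided exact binomial test, p below 0.05 after Benjamini-Hochberg adjustment. They merged into 6223 regions that covered 18039 kb and held 5.64% of the Ezh2 positions against 0.716% of the input. Most of the genome lay near the input level. The median fold of the tested bins was 0.974, and that of 10 kb windows was 0.893, with 2.34% of windows at 2-fold or more. On the 8 chromosomes where both could be read, the control antibody gave 0 called bins of 534821 tested, and the Ezh2 library gave 7062 of 568977. At an unadjusted p below 0.05 in the same exact test, these numbers were 27199 bins (5.09%) for the control antibody and 40786 (7.17%) for Ezh2. Over the genome, the called bins numbered 119127 when every read was counted and 49968 under the background scaling.

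Called bins were spread unevenly over the chromosomes. Chromosome 11, with the HoxB cluster and Tbx21, had the highest share at 2.07% of its tested bins, followed by chromosome 19 at 1.83%, chromosome 2 at 1.56% and chromosome 15 at 1.56%. The lowest shares were 0.688% on chromosome 16, 0.711% on chromosome 18 and 0.730% on chromosome 10.

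Width separated the regions into kinds with different profiles. The narrowest, a single 1 kb bin, made up 3792 of the 6223 regions (60.9%) and held 0.560% of the Ezh2 positions. The 82 regions of 20 kb or more held 1.33% of them. Pooled fold over input was 7.83 for single bins (7.66 to 8.0), 5.80 for regions of 3 to 4 kb (5.70 to 5.90), 8.97 for those of 10 to 19 kb (8.83 to 9.10) and 11.1 for those of 20 kb or more (10.9 to 11.3). The regions were chosen on these values, so the values are a description.

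The single bins were not as marked in the other libraries. In Th1 cells, Ezh2 was 1.85-fold over input in the single bins and 8.21-fold in the regions of 20 kb or more. A bin called in Th1 lay in 7.60% of the single bins, in 48.6% of the 2 kb regions, in 73.3% of those of 3 to 4 kb, in 97.3% of those of 5 to 9 kb and in 100% of the wider ones. The share of all tested bins called in Th1 ran from 0.556% on chromosome 18 to 1.70% on chromosome 11. The Th1 Ezh2 library was shallower, with 10834902 distinct positions against 14997378 in Th2, while Th1 input was deeper (15626355 against 12902652). How far depth set the Th1 calls was not tested. The Th2 control antibody was 2.52-fold over Th2 input in the single bins on its 8 chromosomes, but the calls used that input. Its own scaled density at the middle of the single bins was 4.64 positions per kb, against 4.82 in the regions of 20 kb or more. The single bins were thin in Th2 input, with 2.43 positions per kb against 6.35 in the widest class and a median of 7 over all tested bins. How far low input counts set the single-bin calls was not tested.

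**Figure D1:**
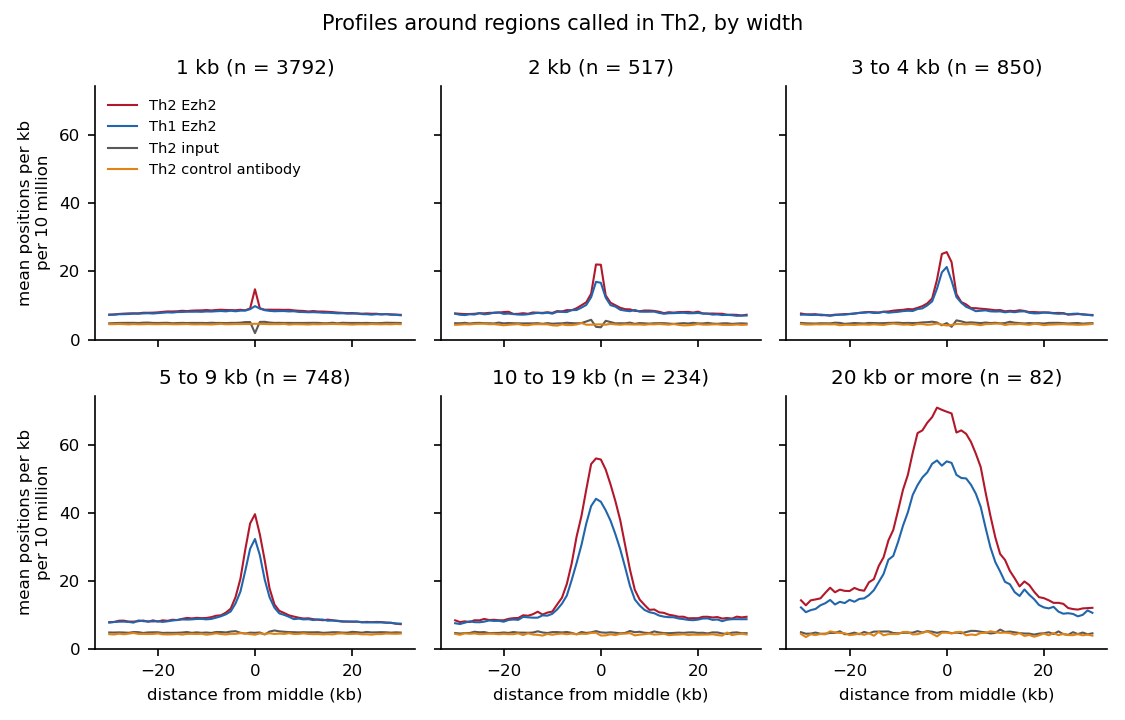
Mean positions per kb, scaled to equal library totals, by distance from the middle of the regions called in Th2, in 6 width classes. Lines are Th2 Ezh2, Th1 Ezh2, Th2 input and, on 8 chromosomes, the Th2 control antibody; both Ezh2 lines form a dome in the wide classes, and in the 3792 single bins the Th2 peak coincides with a dip of the input.

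The 4 widest regions were the Hox clusters, which encode the transcription factors that pattern the body axis. The widest spanned 140 kb over HoxC (chromosome 15 from 102735001 to 102875000), where all 140 bins were called and Ezh2 stood at 13.7-fold (12.8 to 14.7). A single region thus covered all of the HoxC window. HoxB followed with 78 kb (chromosome 11 from 96108001 to 96186000) at 10.6-fold, HoxD with 73 kb (chromosome 2 from 74482001 to 74555000) at 15.0-fold, and HoxA with 70 kb (chromosome 6 from 52158001 to 52228000) at 14.8-fold. In the HoxA region the Th2 control antibody was 0.914-fold over input, and Th2 Ezh2 was 16.3-fold over the control antibody (14.8 to 18.0). The fifth, of 49 kb on chromosome 19 from 44793001 to 44842000, stood at 11.5-fold. Th1 Ezh2 in these 5 regions ranged from 8.5-fold to 11.2-fold over its own input.

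Among the 316 regions of at least 10 kb, the highest fold was 23.8 (18.5 to 31.2) over 15 kb of chromosome 8 from 94879001 to 94894000, with 1718 Ezh2 and 62 input positions. Next were chromosome 11 from 85638001 to 85660000 at 18.7-fold, chromosome 9 from 62982001 to 63002000 at 17.6-fold, chromosome 5 from 75539001 to 75553000 at 16.9-fold and chromosome 11 from 84328001 to 84346000 at 16.8-fold. All 5 were also high in Th1, at 8.62-fold to 13.8-fold. The genes in these 5 regions were not placed. The Th2 control antibody, readable at those on chromosomes 9 and 5, stood there at 0.922-fold and 1.08-fold.

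The 7 developmental loci were each bound over much of their window. All held called bins, 535 of 646 tested in all (82.8%, against 1.21% of bins over the genome), and their median fold was 9.69. HoxC had the highest fold over its whole window, at 14.4, with 128 of 128 bins called and between 43 and 205 Ezh2 positions per bin. Pax6, a regulator of eye and brain development, stood at 9.69-fold with 31 of 40 bins called. Tbx3, a T-box factor of limb development and a relative of T-bet, stood at 9.0-fold with 23 of 24. Cdkn2a-Cdkn2b, the cell cycle inhibitor genes that Ezh2 is known to silence in dividing cells, had the lowest fold of the 7, at 6.36 (36 of 47).

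At the Th1 genes, Ezh2 in Th2 cells was dense over Eomes, modest over Tbx21 and close to input over Ifng. Called bins lay at 3 of the 6 genes, 18 of 321 tested bins (5.61%). The windows of Tbx21, Ifng and Eomes, their order and their contrast with Gata3 were set with earlier results of these data known, so the levels are a description.

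Over Eomes (chromosome 9 from 118380001 to 118402000, 22 kb), there were 909 Th2 Ezh2 positions, 139 Th2 input and 144 Th2 control positions. Ezh2 was thus 5.62-fold over input (4.70 to 6.77) and 5.16-fold over the control antibody (4.32 to 6.20), which itself was 1.10-fold over input (0.864 to 1.4). Only 0.190% of all windows of that width were as high. A 14 kb region from 118384001 to 118398000 held 765 Ezh2 and 83 input positions (7.92-fold) and a densest bin of 88 Ezh2 and 2 input positions. Within it the signal formed 2 humps with a lower stretch between them. The 10 kb window next to it (118400001 to 118410000) stood at 1.95-fold.

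Over Tbx21 (chromosome 11 from 96955001 to 96985000, 30 kb), there were 442 Ezh2 and 200 input positions, a fold of 1.90 (1.60 to 2.26) that 2.36% of windows of that width reached. The elevation was low and broad. Ezh2 positions per bin ran from 5 to 30 with a median of 14, against 2 to 11 with a median of 7 in the input, and 2 of 30 bins were called. These formed a region of 2 kb from 96977001 to 96979000 with 55 Ezh2 and 9 input positions (5.25-fold, 2.58 to 12.1). A further called bin, 10 kb outside the window, held 22 Ezh2 and 0 input positions in Th2, but Th1 input held 23 positions there. Against Th1 input the whole Tbx21 window stood at 1.67-fold (1.44 to 1.95). The 10 kb windows from 96960001 to 96990000 lay at 2.04-fold, 2.06-fold and 2.00-fold and were thus alike in level. The elevation was not confined to the locus. The next window, from 96990001, stood at 1.91-fold. With 15 kb added at both ends, an alternative chosen after seeing the data, the fold was 1.82 (1.61 to 2.06). Chromosome 11 is not among those used from the Th2 control library.

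Over Ifng (chromosome 10 from 117860001 to 117900000, 40 kb), there were 312 Ezh2 and 234 input positions, at 1.15-fold (0.964 to 1.36). No bin of 30 was called, and 16.8% of windows of that width were as high. The nearest called region lay 86 kb away. Its bins held 0 to 16 Ezh2 positions, close to the 0 to 14 of the input.

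**Figure D2:**
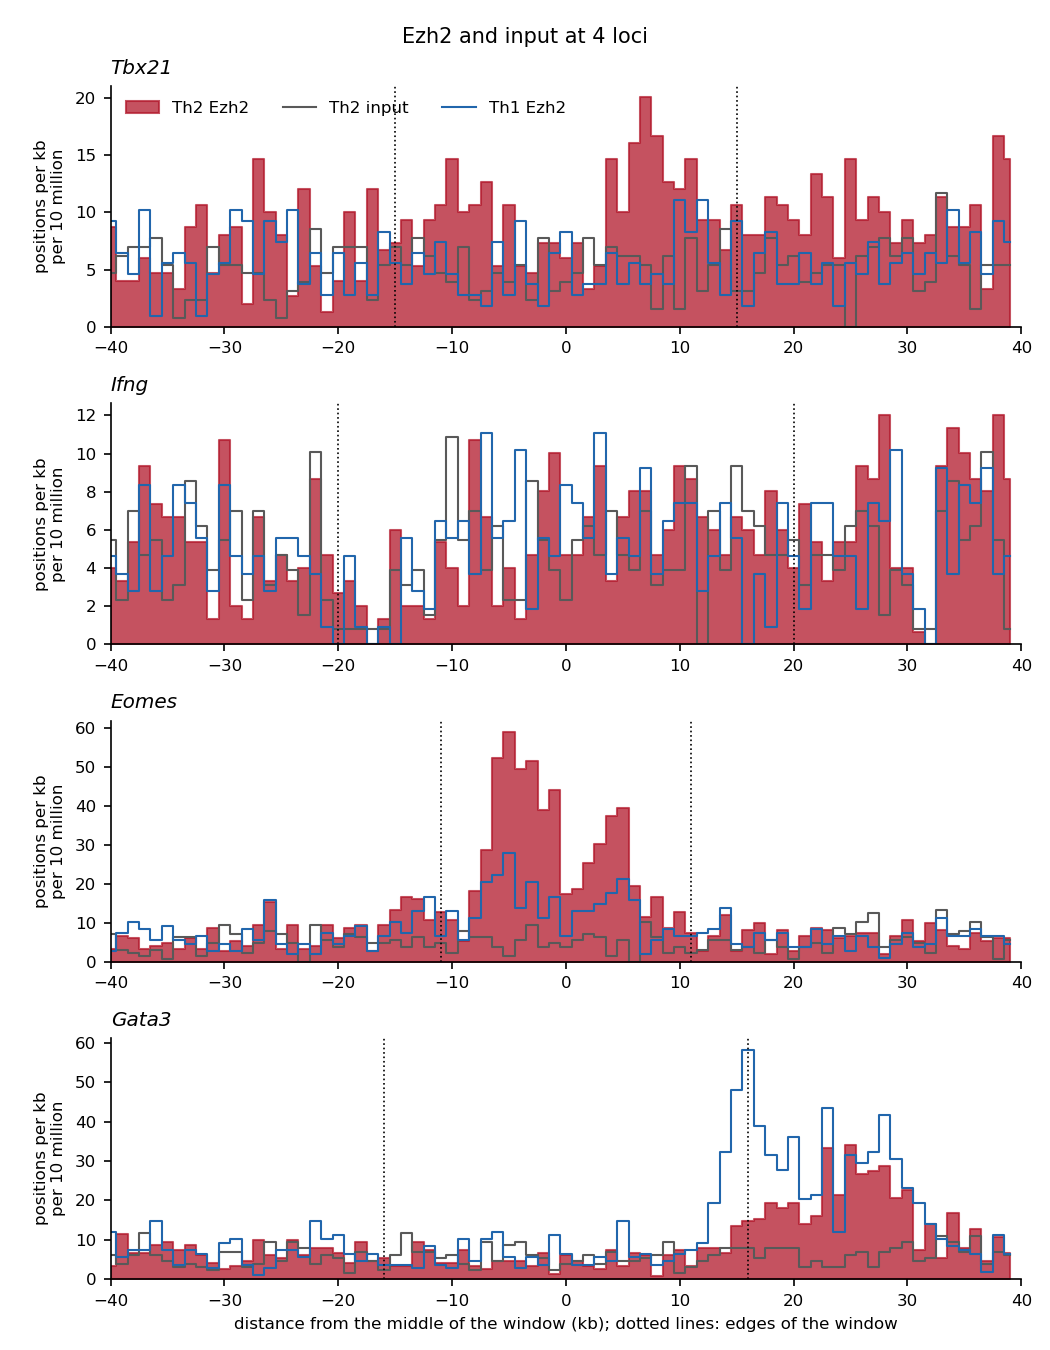
Distinct positions per kb, scaled to equal library totals, over 80 kb around Tbx21, Ifng, Eomes and Gata3, with distance from the middle of each window in kb and dotted lines at its edges. Filled: Th2 Ezh2; grey line: Th2 input; blue line: Th1 Ezh2. The vertical scales differ. Eomes carries a tall domain in Th2, and Tbx21 a low broad elevation that runs past the right edge of its window. Ifng carries neither, and Gata3 has a domain outside the window on its right that is taller in Th1.

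Of the other 3 Th1 genes, only Runx3 held called bins. Runx3, a factor that acts with T-bet, stood at 1.30-fold (1.17 to 1.45) with 3 of 67 bins called. They fell in a region of 4 kb from 134694001 to 134698000 on chromosome 4 with 125 Ezh2 and 32 input positions (3.36-fold) and 0.695-fold for the control antibody. Il12rb2, the inducible chain of the IL-12 receptor, stood at 1.03-fold (0.921 to 1.14), and Stat4, the factor that carries the IL-12 signal, at 0.855-fold (0.774 to 0.945), or 1.2-fold under the background scaling. Neither held a called bin. Ordered by fold over the whole window, Eomes lay above Tbx21 and Tbx21 above Runx3 with intervals that did not overlap. These windows differ in width, at 22 kb, 30 kb and 70 kb, and a short region weighs less in a wide one. The highest 10 kb window stood at 2.46-fold at Runx3 (1.90 to 3.21) and 2.06-fold at Tbx21 (1.55 to 2.77), with intervals that overlapped. The intervals of Runx3 and Ifng overlapped, as did those of Ifng and Il12rb2.

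The Th2 genes lay mostly near the input level in Th2 cells. Their 7 windows had a median fold of 0.892, beside 0.893 for 10 kb windows over the genome. They held 1 called bin among 174 tested (0.575%), which is near the 1.21% of the genome at this number. Gata3 itself (chromosome 2 from 9773001 to 9805000, 32 kb) held 253 Ezh2 and 238 input positions, at 0.914-fold (0.763 to 1.10), or 1.29-fold under the background scaling, with 0 of 27 bins called. A fold as high was found in 43.8% of windows of that width. Gata3 was placed at 22 kb and is 30.9 kb long in the GRCm38.p6 gene table, so its outermost start may lie outside this window. A called region of 6 kb from 9812001 to 9818000, 7 kb beyond the window on the side of the gene's start, held 257 Ezh2 and 38 input positions (5.81-fold, 4.12 to 8.40).

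Il4, the gene of the signature Th2 cytokine, had the lowest fold of all 36 loci over Th2 input. Its window (chromosome 11 from 53421001 to 53437000) held 101 Ezh2 and 157 input positions, at 0.553-fold (0.426 to 0.715), and 3.80% of windows of that width were as low or lower. Th2 input itself was dense there, 1.46 times the Th1 input, and against Th1 input the fold was 0.809 (0.617 to 1.06). It was then no longer the lowest: Actb (0.626), Rad50 (0.678), Gata1 (0.786) and Ptprc (0.790) lay below it. Under the background scaling it was 0.778. Along the rest of the cytokine locus the folds were 0.945 at Il13 (0.704 to 1.27), 0.728 at Rad50, the DNA repair gene that holds the locus control region (1.02 under the background scaling), and 0.892 at Il5. Il4ra, the IL-4 receptor chain, stood at 0.818-fold, or 1.15-fold under that scaling. Maf, an activator of Il4, was the exception at 1.97-fold (1.54 to 2.54). Its 1 called bin held 25 Ezh2 and 3 input positions, and Th1 Ezh2 was 7.49-fold over input in the same bin.

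**Figure D3:**
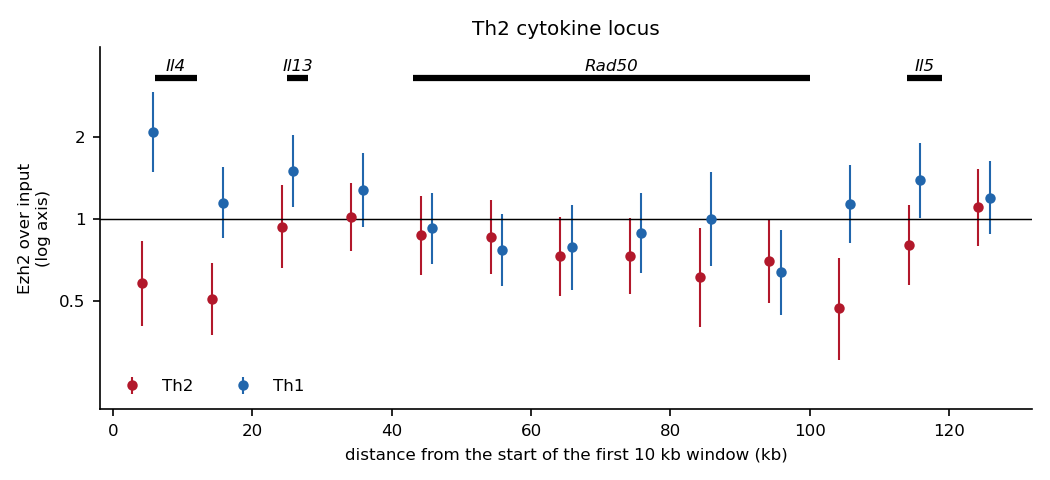
Fold of Ezh2 over input (log axis) in each 10 kb window along the Th2 cytokine locus, with 95% exact counting intervals, in Th2 (red) and Th1 (blue); bars at the top mark the placed genes. In the first window, at Il4, Th2 lies at 0.580 and Th1 at 2.09, with intervals that do not overlap. Over the whole Il4 window, Th2 input was 1.46 times the Th1 input.

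The windows of 4 genes of other T helper types and of 5 active T cell loci held no called bins, 0 of 83 and 0 of 209. At these numbers the genome share of 1.21% also gives few or none. Il17a, the cytokine gene of Th17 cells, had the highest fold of the former at 1.34. Bcl6, of follicular helper cells, stood at 1.25-fold, Prdm1, which encodes Blimp-1, at 1.19-fold and Foxp3, of regulatory T cells, at 0.867-fold. Prdm1 was placed at 23 kb against 91.4 kb in the gene table, and 4 called regions lay 1 to 57 kb outside its window. The widest of them, 7 kb on chromosome 10 from 44242001 to 44249000, stood at 6.64-fold (4.93 to 9.10). The active genes lay at 0.768-fold to 1.09-fold, with Actb lowest, Ptprc (CD45) at 0.792 (1.11 under the background scaling), Cd4 at 0.813 (1.14), the Cd3 cluster at 0.942 and Gapdh highest. These windows give the level of genes that T cells transcribe. Gata3, Il13, Il5 and Il4ra lay within that range, Rad50 (0.728) and Il4 below it, and Maf above it. Against Th1 input, Rad50 (0.678) and Il4 lay within the range too, which then ran from 0.626 to 0.985. The Gata3 window may leave out the gene's outermost start. With 15 kb added at both ends, an alternative chosen after seeing the data, Gata3 stood at 1.65-fold over Th2 input.

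Genes of other blood lineages differed among themselves, with 53 of 592 bins called (8.95%) at 4 of 6 loci. Gata2, a stem cell factor and relative of GATA3, stood at 6.67-fold (5.64 to 7.93) with 14 of 24 bins called. Cebpa, of myeloid cells, stood at 4.77-fold with 7 of 13. Pax5, the B cell identity factor, stood at 2.62-fold over a long window. An 18 kb region there, which runs past the edge of the window, held 1300 Ezh2 positions (8.87-fold), and a 5 kb region held 252 (7.74-fold). Ebf1, another B cell factor, held a region of 10 kb at 5.99-fold in a window at 1.31-fold. Spi1 (PU.1) and Gata1, of myeloid and erythroid cells, had no called bin, at 1.25-fold and 1.18-fold. The Th2 control antibody lay between 0.719-fold and 1.16-fold at the 16 of 36 loci it could be read at.

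**Figure D4:**
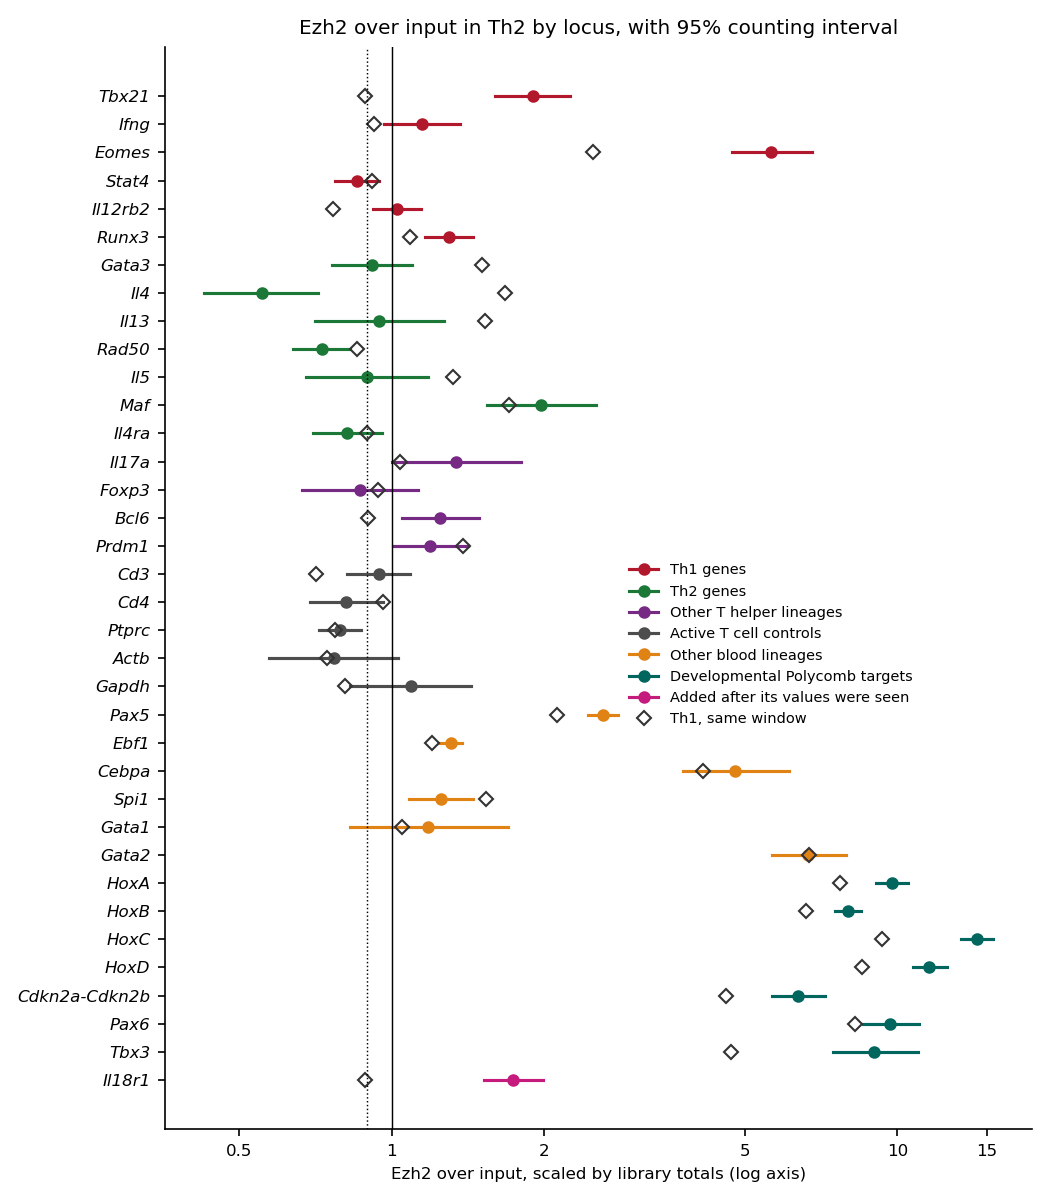
Fold of Ezh2 over input (log axis) at 36 loci grouped by list. Filled circles with bars are Th2 with 95% exact counting intervals, open diamonds are Th1 in the same window, and the dotted line is the median of 10 kb windows in Th2 (0.893). Developmental loci lie at 6.36-fold or more, and Eomes is the highest of the Th1 genes.

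Where Th2 differed from Th1 was tested in fixed 10 kb windows, with a two-sided conditional exact test on the positions of both Ezh2 and both input libraries and adjustment over all windows. Few differed. Of 249841 windows, 39 (0.0156%) were higher in Th2 and 27 (0.0108%) lower, with at least a 2-fold ratio of folds and p below 0.05 after adjustment. The windows at the listed loci, without Il18r1, gave 4 higher and 2 lower of 254, and their median ratio was 1.16 against 1.00 over all windows. Counting every read gave 8819 higher and 6969 lower windows over the genome.

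At the Th1 genes, 1 window at Tbx21 and 1 at Eomes were higher in Th2 than in Th1, and 0 of 8 at Runx3. At Tbx21, the window from 96970001 to 96980000 held 168 Ezh2 and 70 input positions in Th2 (2.06-fold) and 50 and 98 in Th1 (0.735-fold). The ratio was 2.81 (1.77 to 4.47; adjusted exact p = 0.0228). The adjacent window from 96960001 had a ratio of 2.80 and an adjusted exact p of 0.0547, which missed the threshold, and the window from 96990001, beyond the locus, a ratio of 2.80 with an adjusted exact p of 0.0191. At Eomes, the window from 118390001 to 118400000 held 389 Ezh2 and 65 input positions in Th2 (5.14-fold) and 136 and 91 in Th1 (2.15-fold), a ratio of 2.39 (1.62 to 3.53; adjusted exact p = 0.0303). Eomes was thus above input in both cell types, and Tbx21 in Th2. Over whole windows the ratio was 2.25 at Eomes (1.73 to 2.92). It was also above 1 at the 7 developmental loci, from 1.18 at Pax6 (0.982 to 1.41) to 1.92 at Tbx3 (1.47 to 2.50), but 0.996 at Gata2. The test did not set Eomes against other bound loci. The 4 windows at Ifng had adjusted exact p values from 0.553 to 1, and the ratio over the whole Ifng window was 1.24 (0.970 to 1.60).

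At the Th2 genes, both called windows were lower in Th2. The window at the edge of the Gata3 locus (9800001 to 9810000) held 189 Ezh2 and 85 input positions in Th2 (1.91-fold) and 334 and 93 in Th1 (5.18-fold), a ratio of 0.369 (0.258 to 0.529; adjusted exact p = 6.88e-04). In 20 kb windows the ratio at Gata3 was 0.606, short of the 2-fold limit. The called region 7 kb beyond the Gata3 window did not show that gap, at 5.81-fold in Th2 and 6.32-fold (4.58 to 8.87) in Th1. Inside the Gata3 window 3 bins were called in Th1, against 0 in Th2. At Il4, the window from 53420001 to 53430000 held 54 Ezh2 and 80 input positions in Th2 (0.580-fold) and 90 and 62 in Th1 (2.09-fold), a ratio of 0.277 (0.168 to 0.457; adjusted exact p = 0.00263). In Th1, too, no bin of the Il4 window was called. Th2 input was dense at Il4, at 1.46 times the Th1 input over the whole Il4 window. How far this set the ratio there was not tested. Near Il5, the window from 53520001 had a ratio of 0.413 (0.236 to 0.716) that did not pass the threshold (adjusted exact p = 0.235).

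The other windows called at the listed loci were in Hox clusters, both higher in Th2. They lay in HoxC from 102840001 (19.1-fold in Th2, 8.21-fold in Th1; ratio 2.32, adjusted exact p = 0.0148) and in HoxB from 96060001 (13.4-fold and 6.26-fold; ratio 2.14, adjusted exact p = 0.0493). In 20 kb windows these ratios were 1.69 and 1.77, short of the limit. The HoxC window held 1132 Ezh2 and 51 input positions in Th2, and 581 and 102 in Th1. The HoxB window held 841 and 54 in Th2, and 452 and 104 in Th1. Th2 input was thus thin beside Th1 input in both windows. How far this set the ratios was not tested. Il18r1, a chain of the IL-18 receptor that Th1 cells use, was chosen after its values were seen. Its window from 40530001 to 40540000 on chromosome 1 held 191 Ezh2 and 69 input positions in Th2 (2.38-fold) and 52 and 111 in Th1 (0.675-fold). With a ratio of 3.52 (2.25 to 5.54; adjusted exact p = 1.51e-04), it had the sixth smallest p of all windows. Th2 input was thin beside Th1 input in the Il18r1 window too, and how far this set its ratio was not tested.

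**Figure D5:**
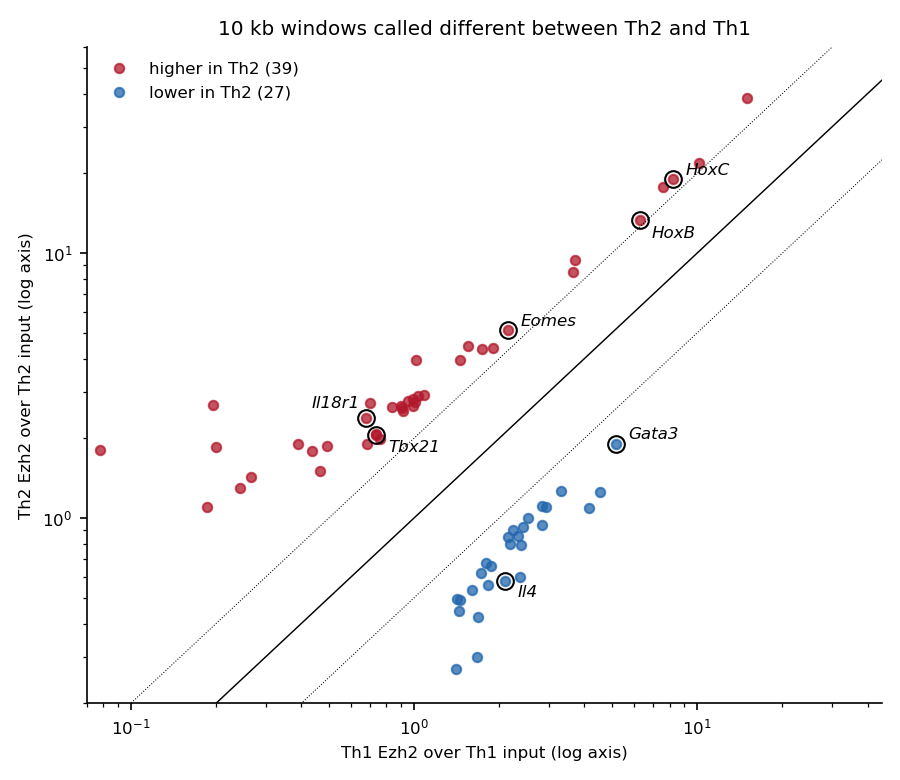
Fold of Ezh2 over input in Th2 against Th1 (both axes log) for the 39 windows called higher in Th2 (red) and the 27 called lower (blue). The solid line is equality, dotted lines are 2-fold either way, and rings name windows at the listed loci and at Il18r1: Tbx21 and Il18r1 lie below 1 in Th1 and above 2 in Th2, and Gata3 is the rightmost of the lower windows.

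The called windows covered a range of levels, which their selection on the ratio partly fixed. Those higher in Th2 ran from 1.10-fold to 38.6-fold in Th2, and those lower in Th2 from 0.271-fold to 1.91-fold. Of the 39 higher windows, 10 lay below 0.5-fold in Th1, with Ezh2 far below the input there. An example on chromosome X from 42160001 held 19 Ezh2 and 9 input positions in Th2 and 2 and 37 in Th1. Tbx21, Eomes and Il18r1 were not among these 10.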

How the data were processed

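The 6 libraries of mouse CD4 T cells were prepared, per the labels' protocols, from DNA of 170 to 250 bp with 18 cycles of PCR and sequenced for 36 cycles. Per the submitters' processing notes, CASAVA and mm9 were used. For alignment settings, read extension and filters, the sources used here give nothing. The files hold counts of reads, as deposited: the authors listed each genomic interval, without a strand, with the number of reads that shared it and no normalization.

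Each distinct interval was counted once, at its midpoint, in 1 kb bins of chromosomes 1 to 19 and X, which limits PCR duplicates. The Th2 control antibody file ends inside chromosome 17 and was used on the 8 chromosomes it holds whole (3, 4, 5, 6, 7, 9, 12 and X), with totals over those. Bins with under 10 positions in Ezh2 and input together were not tested. In the bin and window tests 0.5 was added to each count for the fold, and called bins were merged over a gap of at most 1 bin. Folds at loci and regions are plain ratios of shares. Depth ran from 12902652 to 14997378 positions in the 2 main Th2 libraries, a median of 7 input positions per tested bin.

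Genes were named by list: Th1, Th2, other T helper, active T cell, other blood lineage and developmental loci, plus the 5 widest regions and the 5 of at least 10 kb with the highest fold. One locus of the other T helper list is not reported here. Members and lists were chosen with earlier results of these data known. The windows of Tbx21, Ifng and Eomes were given. The others were placed from known mm9 gene positions with 5 kb added at both ends, since no mm9 annotation was used here and nothing was converted between builds. The GRCm38.p6 gene table served for chromosomes and lengths only: 27 of 27 placed genes were on the same chromosome, and 21 were within 5 kb of its length. Stat4, Il12rb2, Gata3, Prdm1, Pax5 and Gata1 differed by more, so their windows may leave out part of the gene. Alternatives were other backgrounds, counting, scaling, bin sizes, thresholds and windows. The steps were tested on simulated data. Python 3.11.15, numpy 2.4.6, scipy 1.17.1, pandas 2.3.3, numba 0.67.0 and matplotlib 3.10.9 were used.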

Additional observations from a re-analysis of the deposited data

Results flagged for a closer look

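At 7 windows of 10 kb that overlap the named loci, Ezh2 over input differed between Th2 and Th1 in the conditional exact test of the difference itself. The ratio of the Th2 fold to the Th1 fold was 3.52 at Il18r1, 2.81 at Tbx21, 2.39 at Eomes, 2.32 at HoxC and 2.14 at HoxB, all higher in Th2. It was 0.369 at Gata3 and 0.277 at Il4, both lower in Th2. Each compares 1 library per group, and Il18r1 was chosen after its values were seen. Th2 and Th1 input also differed in level at several of these windows, and how far this set the ratios was not tested.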

How the results depend on the processing

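No paired analysis was possible because 1 library stood for each group. With 17075 called bins, 6223 regions and 316 regions of at least 10 kb as the base, all deposited reads gave 119127, 84505 and 953, and background scaling (totals from 10 kb windows below the median of Ezh2 over input, which raises each fold 1.41 times) gave 49968, 26745 and 772. Requiring a 4-fold enrichment and p below 0.001 after adjustment gave 8836, 2422 and 193. Bins of 2 kb gave 15079 called bins and 843 regions of at least 10 kb. Th1 input, equal depth, no minimum of positions and merging without a gap kept the counts within 1.5 times. On 8 chromosomes, the control antibody as background did so too. Only counts were compared, not whether the same bins or regions were called. Background scaling moved Tbx21 to 2.67-fold, Ifng to 1.61, Eomes to 7.91 and Gata3 to 1.29, and turned 5 loci from below to above input: Stat4 (1.2), Rad50 (1.02), Il4ra (1.15), Cd4 (1.14) and Ptprc (1.11). The control antibody as background put Cd4 at 1.08. With 15 kb added to the windows, an alternative chosen after seeing the data, Tbx21 stood at 1.82-fold and Eomes at 3.37-fold. Gata3 then stood at 1.65-fold, since the wider window took in the Gata3 region. Between cell types, all reads gave 8819 windows higher and 6969 lower in Th2, and 20 kb windows gave 71 higher. In 20 kb windows Gata3 (0.606), HoxC (1.69) and HoxB (1.77) no longer reached a ratio of 2 either way, and with the median ratio as the expected one HoxB missed the threshold. The cause was not tested. Where input counts are low, the single-bin calls rest on few positions.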
